A study of Homo sapiens with 6 samples.

Results

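The genes described here are the histone lysine methylases and demethylases and their closest relatives, taken from the count table by symbol. A row was a member when its symbol began with KMT, KDM, SETD or PRDM followed by a digit, or was EZH1, EZH2, EED, SUZ12, SUV39H1, SUV39H2, EHMT1, EHMT2, NSD1, DOT1L, SETDB1 or SETDB2. Of 58735 rows, 69 were members, and 2 antisense rows with such symbols were left out. A total of 56 members passed the filter on low counts, among 15935 genes that did. The remaining 13 members were not tested. Of these, 8 had 0 counts in every sample (PRDM7, PRDM9, PRDM14, KDM4E, KDM4F, KDM5D and the pseudogenes SETD6P1 and KDM5DP1). The others were PRDM1, PRDM6, PRDM12, SETD8P1 and KDM5C-IT1, each with at most 17 counts in a sample.

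RD is an established human line of embryonal rhabdomyosarcoma (ERMS), a tumor whose cells carry a skeletal muscle program but do not complete differentiation. RD cells were transduced with lentiviral particles carrying a scrambled shRNA (n = 3) or a TAK1 shRNA (n = 3), and poly(A) mRNA was sequenced. TAK1 is the kinase encoded by MAP3K7, which relays cytokine and stress signals to the NF-kB and MAP kinase pathways. A single TAK1 shRNA was sequenced, so effects of lost TAK1 and of that construct cannot be told apart. The samples of both groups carry a lentiviral shRNA, and the labels do not say whether the 3 samples of a group came from separate cultures, so p-values measure the spread between these samples.

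Methyl groups on histone lysines are placed by methylases (writers), most with a SET domain, and removed by demethylases (erasers) of the flavin-dependent and the JmjC classes. Methylation of H3K4 accompanies active promoters and enhancers, H3K36 and H3K79 methylation accompany transcribed genes, and H3K9, H3K27 and H4K20 methylation are linked to silenced chromatin. In muscle, H3K27 methylation by Polycomb repressive complex 2 (PRC2) is known to hold differentiation genes silent in proliferating precursors. The measurements here are of mRNA, and neither the enzymes nor the marks were measured.

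Total counts ran from 28839898 to 34469323 per sample. MAP3K7 mRNA had a mean of 77.3 counts per 1000000 of TMM-scaled library size (CPM) in scrambled and 31.3 CPM in TAK1 shRNA samples, a log2 fold change of -1.30. For the labelled cell type, 6 of 7 myogenic markers passed the filter and MYF5 was listed at 0. MYOD1, MYOG, CHRNG and MYMK rose, at log2 fold changes of 0.37, 0.27, 0.47 and 0.98, while CDH15 (0.23) was under the fold threshold and DES had 0.089. None of 8 markers of blood, epithelium, endothelium, neural crest or liver passed the filter. Their highest group mean was 0.306 CPM (EPCAM), and CD3E, CDH1 and CDH5 were at 0 in every sample. Of 16 DNA replication genes, 11 fell past the thresholds given below, against 11.3% of all tested genes. The median log2 fold change was -0.34 over the list. This shift in proliferation and differentiation genes moved with the TAK1 shRNA group, and its part in the results on histone genes was not tested. In bulk RNA, fewer cells of one state and less mRNA per cell cannot be told apart.

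Knockdown of TAK1 went with higher mRNA of several H3K4 methylases, of the H3K79 methylase DOT1L and of the H3K27 demethylase KDM6B, and with lower mRNA of SETD7, KDM4D, PRDM8 and SUV39H2. A gene was called when its adjusted p was under 0.05 and its log2 fold change was at least 0.25 in size, by the quasi-likelihood test of edgeR, with p-values adjusted over all 15935 genes by the method of Benjamini and Hochberg. Of the 56 tested members, 10 were called higher, a share of 17.9% against 11.8% of all tested genes, and 4 were called lower, a share of 7.14% against 11.3% of all tested genes. A further 12 members were higher and 2 lower with an adjusted p under 0.05 but a smaller change, and 28 did not pass. Over all 15935 tested genes, 690 were higher and 929 lower in that way, and 10632 did not pass. The fold change was above 0 for 37 members and below 0 for 19, against 8370 and 7565 of all tested genes. The median log2 fold change was 0.14 over members and 0.018 over all tested genes. The median over members was 0.087 without TAK1 shRNA replicate 3 and 0.092 with offsets for GC content and length. The samples of the groups did not overlap, with TAK1 shRNA higher, for 26 members, against 21.6% of all tested genes, and with TAK1 shRNA lower for 9 members, against 22.2% of all tested genes. These counts cover only the members that passed the filter on low counts, and they describe the list without a test of it.

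**Figure D1:**
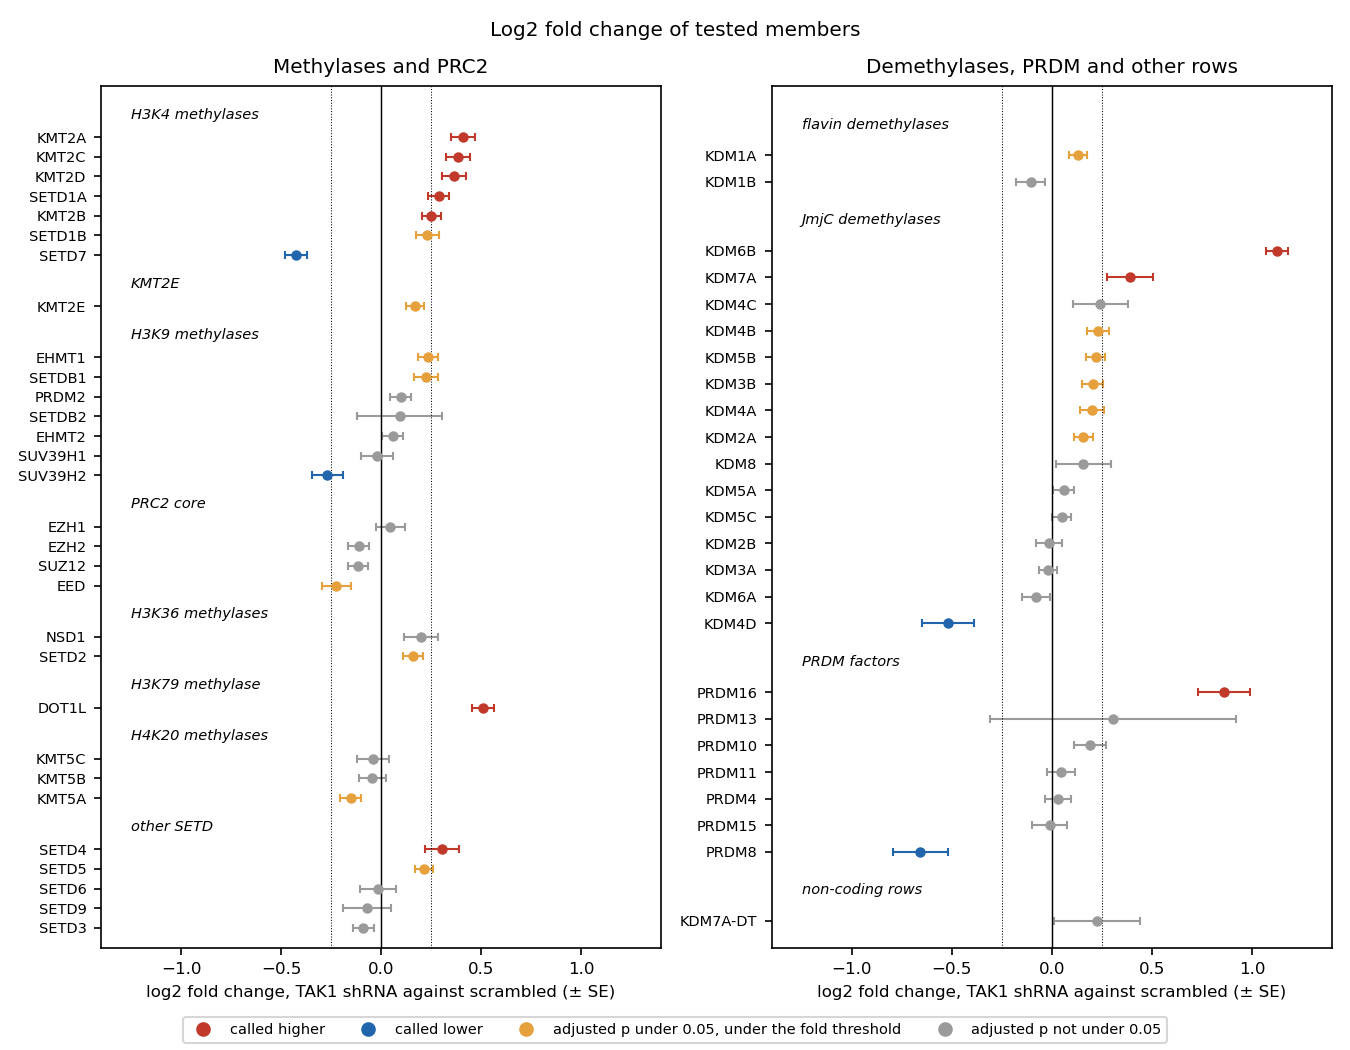
Log2 fold change (x axis, TAK1 shRNA against scrambled shRNA, with standard error) of the tested members named here, grouped by role, with dotted lines at the fold threshold of 0.25 in either direction. KDM6B stands apart at 1.13, 6 of the 7 tested H3K4 methylases lie to the right of 0 and SETD7 lies to the left at -0.42.

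Among the H3K27 enzymes the demethylase KDM6B rose while the methylase complex showed no call. KDM6B, also called JMJD3, is a JmjC enzyme that removes methyl groups from H3K27 and is known to be induced in inflammatory and developmental settings. Its gene lies on chromosome 17 from 7834217 to 7854796 on the plus strand (GRCh38), and no exon of another gene overlaps it there. Its level was 73.1, 66.2 and 66.9 CPM in the scrambled samples and 158, 146 and 146 CPM in the TAK1 shRNA samples. Every TAK1 shRNA sample was far above every scrambled sample. The log2 fold change was 1.13 (SE 0.054, adjusted p = 5.53e-14), a 2.18-fold difference and the largest of any member. Without each sample in turn the log2 fold change ran from 1.09 to 1.17.

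KDM6A (UTX), the paralog of KDM6B with the same substrate, had 35.0, 31.4 and 33.3 CPM in the scrambled and 30.3, 32.9 and 31.2 CPM in the TAK1 shRNA samples. These values overlapped, and the log2 fold change of -0.079 (adjusted p = 0.425) did not pass. Per length of the canonical transcript, KDM6B made up 65.2% ± 0.565 (SD, n = 3) of the summed level of the pair in the scrambled samples and 81.2% ± 1.24 (SD, n = 3) in the TAK1 shRNA samples. KDM6B was thus the more abundant mRNA of the pair per length in both groups.

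EZH2 and EZH1 are the alternative catalytic subunits of PRC2, and EED and SUZ12 are its obligate core partners. Of these 4 genes, none was called by edgeR, DESeq2 or limma-voom, and 3 of the 4 had an unadjusted p under 0.05, each with the TAK1 shRNA mean lower. In edgeR 11.8% of all tested genes were called higher and 11.3% lower, so 4 genes may hold no call. Without a fold threshold, 16.1% of all tested genes were higher and 17.2% lower at an adjusted p under 0.05. Shares at an unadjusted p under 0.05 are no smaller than these, and with 4 genes nothing is read from the count. EZH2 had 142, 151 and 154 CPM in the scrambled and 128, 145 and 139 CPM in the TAK1 shRNA samples. One TAK1 shRNA sample exceeded the lowest scrambled sample, and the log2 fold change was -0.11 (SE 0.053, adjusted p = 0.108). EED, which binds trimethylated H3K27, had 31.7, 29.9 and 32.5 CPM against 25.2, 28.6 and 26.7 CPM. The groups of EED did not overlap, and its log2 fold change of -0.22 passed the p threshold (adjusted p = 0.0193) but not the fold threshold. EED would be called lower, at up to -0.27, without scrambled replicate 2 or without TAK1 shRNA replicate 2.

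SUZ12, the scaffold of the complex, had 96.6 CPM in each scrambled sample and 88.3, 89.5 and 89.6 CPM in the TAK1 shRNA samples. Its groups did not overlap, and the log2 fold change of -0.12 had an adjusted p of 0.0731. EZH1, the subunit that prevails in non-dividing cells, had 25.1, 24.8 and 23.4 CPM against 25.3, 26.2 and 24.1 CPM. The EZH1 groups overlapped, with a log2 fold change of 0.046. The log2 ratio of EZH2 to EZH1 counts within a sample, which does not depend on library scaling, was 2.61 ± 0.107 (SD, n = 3) in scrambled and 2.45 ± 0.0986 (SD, n = 3) in TAK1 shRNA samples. The difference of -0.16 had p = 0.2 in a two-sided exact permutation test, for which 3 against 3 samples cannot go below 0.1.

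**Figure D2:**
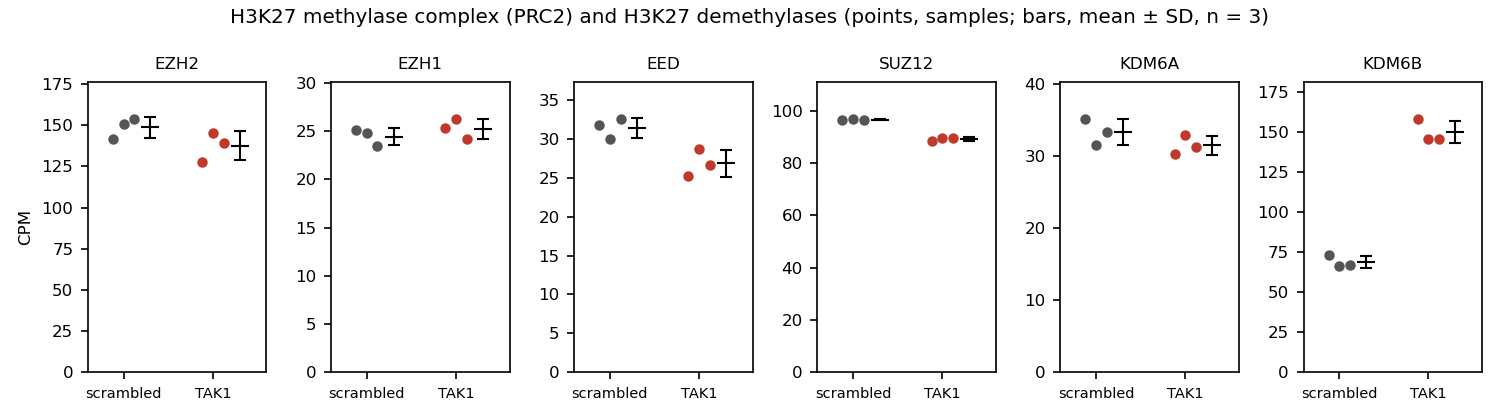
CPM (y axes, each from 0) of the 4 PRC2 core genes and of the H3K27 demethylases KDM6A and KDM6B in the 3 scrambled and 3 TAK1 shRNA samples, with mean and SD beside the points. KDM6B separates the groups widely (66.2 to 73.1 against 146 to 158 CPM), whereas the points of EZH2, EZH1 and KDM6A overlap between groups.

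Of 9 tested genes for other proteins that join PRC2, JARID2 rose (0.34) and PHF19 (-0.61) and AEBP2 (-0.38) fell, on the log2 scale. These shares, 11.1% higher and 22.2% lower, stand beside 11.8% and 11.3% of all tested genes, and with 9 genes nothing is read from them. JARID2 and AEBP2 mark one form of the complex, and PHF19 with its relatives PHF1 and MTF2 marks the other. PHF19 went from a mean of 206 to 135 CPM. MTF2, PHF1, RBBP4, RBBP7 and EPOP were lower with an adjusted p under 0.05 but under the fold threshold, and LCOR did not pass.

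The promoters of KDM6B, of SETD7 and of KDM4D are shown as those of 1 demethylase that rose, of a methylase and of a demethylase that fell, none of which shares an exon with another gene. They were picked after the values were seen, and KDM7A, which also rose and shares no exon, is not shown. RefSeq lists 2 starts for KDM6B, and the line gives the one at the edge of the gene in GENCODE. Each line gives the 250 bases before the start in RefSeq (GRCh38.p14), on the strand of the gene. Capitals mark GC boxes (GGGCGG, on either strand) in KDM6B and KDM4D and the E-box CAGCTG in SETD7.
KDM6B, chr17:7833967-7834216, plus strand: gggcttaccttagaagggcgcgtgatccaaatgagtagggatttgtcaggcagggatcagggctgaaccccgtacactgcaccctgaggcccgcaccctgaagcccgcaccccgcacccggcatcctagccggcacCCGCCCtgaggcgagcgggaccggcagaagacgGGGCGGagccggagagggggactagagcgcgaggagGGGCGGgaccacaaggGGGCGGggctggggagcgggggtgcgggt
SETD7, chr4:139556220-139556469, minus strand: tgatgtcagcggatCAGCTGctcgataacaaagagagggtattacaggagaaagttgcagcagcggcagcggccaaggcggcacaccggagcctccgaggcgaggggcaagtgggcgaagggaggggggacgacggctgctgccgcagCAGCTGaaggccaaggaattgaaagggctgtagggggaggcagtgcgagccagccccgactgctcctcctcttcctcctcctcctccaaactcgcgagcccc
KDM4D, chr11:94973459-94973708, plus strand: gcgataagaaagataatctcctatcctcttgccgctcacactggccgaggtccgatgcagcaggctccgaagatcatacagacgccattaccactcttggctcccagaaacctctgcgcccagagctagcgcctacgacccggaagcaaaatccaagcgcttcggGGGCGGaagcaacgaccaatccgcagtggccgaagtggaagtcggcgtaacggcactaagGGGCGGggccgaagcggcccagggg
The KDM6B sequence held 4 GC boxes, 21 CpG dinucleotides and 70.4% G and C. The KDM4D sequence held 2 GC boxes and the SETD7 sequence 2 E-box matches. The start used for SETD7 lies 50480 bases inside the outer edge of the gene in GENCODE, so other starts exist.

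The same 250 bases of 35116 promoter entries were searched on both strands. The AP-1 motif TGANTCA and the NF-kB motif (GGG, any 2 bases, then TTTCC), whose factors act downstream of TAK1, were found in 6.57% and 1.73% of all entries and in none of the 14 entries of the called members. At those rates 14 entries may hold none, so nothing is read from their absence. The CRE TGACGTCA was in 1.65% of all entries and in 1 of those 14 (SUV39H2), and the E-box CAGCTG in 14.0% of all and in 2 of those 14 (SETD7 and SUV39H2). The GC box was in 42.6% of all entries and in 10 of those 14. It was added to the search after these sequences were seen, and like the NF-kB motif it starts with GGG, so the 2 can overlap. The entries cover 12 of the 14 called members, with DOT1L and PRDM16 named only.

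Of 7 tested H3K4 methylases, 5 were called higher, against 11.8% of all tested genes, and 1 lower, against 11.3%. With offsets for GC content and length, 2 of the 5 were called higher, and 11.3% of all genes in that fit were. KMT2A (MLL1), KMT2B, KMT2C and KMT2D, with SETD1A and SETD1B, are the catalytic subunits of the COMPASS family, which methylates H3K4 at promoters and enhancers. KMT2A had 86.9, 91.2 and 86.6 CPM in the scrambled and 117, 105 and 130 CPM in the TAK1 shRNA samples, a log2 fold change of 0.41 (SE 0.0615, adjusted p = 1.04e-05). KMT2C had 91.8, 89.2 and 82.9 CPM against 109, 108 and 128 CPM, with a log2 fold change of 0.38. KMT2D had 192, 201 and 183 CPM against 258, 216 and 268 CPM, with a log2 fold change of 0.36. The groups overlapped in none of the 3, and the TAK1 shRNA samples varied more than the scrambled ones in each. KMT2C and KMT2D are the enhancer methylases of the family.

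SETD1A had 81.8, 77.6 and 75.4 CPM against 99.6, 92.7 and 94.5 CPM, with a log2 fold change of 0.29 (adjusted p = 0.000135). KMT2B, at 182, 171 and 175 CPM against 221, 204 and 204 CPM, lay on the fold threshold with a log2 fold change of 0.25 (adjusted p = 0.000211). Both sets of samples separated without overlap. SETD1B had a log2 fold change of 0.23 (adjusted p = 0.0028), under the fold threshold. KMT2E, a relative with no known catalytic activity, had 149, 149 and 150 CPM against 166, 166 and 171 CPM, with a log2 fold change of 0.17 that was also under it. KMT2B was no longer called without scrambled replicate 2 (0.23), without scrambled replicate 3 (0.246) or without TAK1 shRNA replicate 1 (0.21).

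The transcripts of these genes are long, those of KMT2B, KMT2D and SETD1A are also GC-rich, and fold changes over all genes moved with GC content. In the quintile of genes with the highest GC content of the canonical transcript, the median log2 fold change was 0.11 and 21.6% of genes were called higher. In the quintile with the lowest GC content the median was -0.070 and 6.78% were called higher. The highest quintile held 10 members, of which 5 were called higher, namely KDM6B, DOT1L, KMT2D, KMT2B and SETD1A. The longest quintile of transcripts, from 5701 bases up, held 28 of the 56 members and 9 of the 10 called higher. Over all genes of that quintile 16.0% were called higher.

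With offsets for GC content and length, an alternative chosen after the data were seen, the log2 fold change of KMT2D was 0.12, that of SETD1A 0.16 and that of KMT2B 0.080, and none of the 3 was called. KMT2A (0.28) and KMT2C (0.27) stayed above the fold threshold. KDM6B (0.99), PRDM16 (0.77) and DOT1L (0.35) were called in that fit as well. In that fit 7 of the 10 members called higher and 3 of the 4 called lower were also called. With these offsets 8 members were called higher and 3 lower, against 11.3% and 11.9% of the 13867 genes in that fit. Among the lower members SUV39H2, at -0.18, was no longer called.

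**Figure D3:**
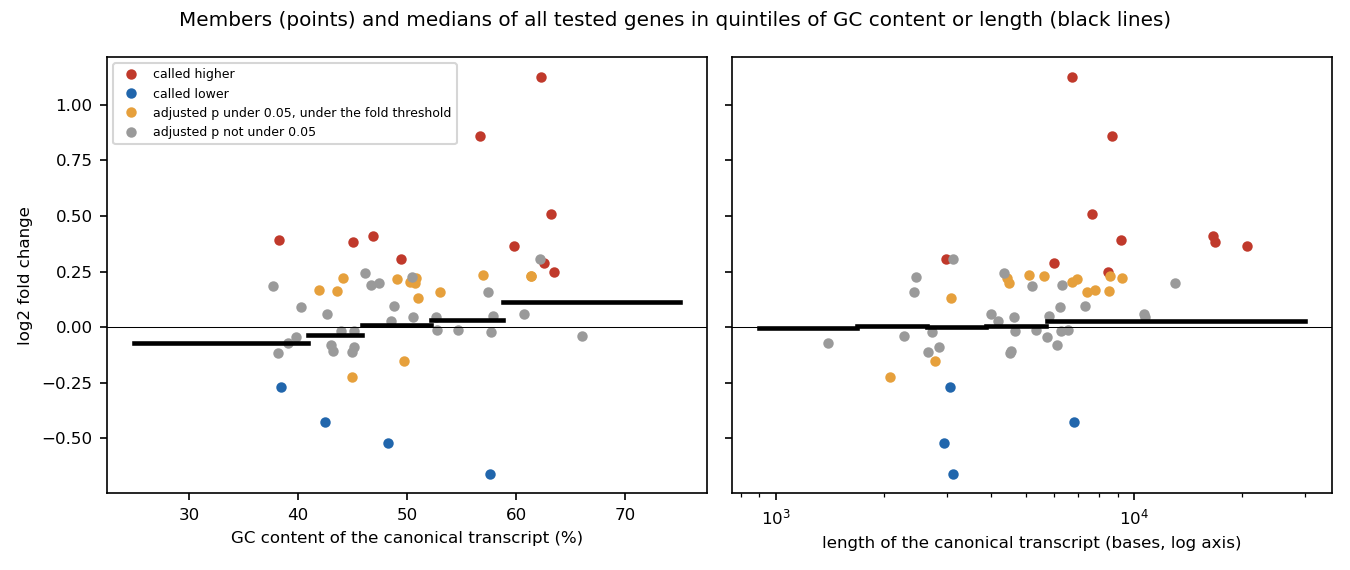
Log2 fold change (y axis, TAK1 shRNA against scrambled shRNA) of the 56 tested members against the GC content (left) and the length (right, log axis) of the canonical transcript, with black lines at the medians of all tested genes in each quintile, the outermost shortened to the plotted range. The black lines rise from -0.070 to 0.11 across GC content and stay near 0 across length, and 9 of the 10 members called higher sit in the longest quintile.

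SETD7, a monomethylase of H3K4 and of several non-histone proteins, went the other way. It had 140, 133 and 143 CPM in the scrambled and 99.6, 97.7 and 112 CPM in the TAK1 shRNA samples. Every TAK1 shRNA sample was below every scrambled one. The log2 fold change was -0.42 (SE 0.0546, adjusted p = 1.1e-06), with -0.50 to -0.39 without each sample in turn. PRDM9, the meiotic H3K4 methylase, was at 0 counts.

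Among genes for non-catalytic subunits and partners of the COMPASS complexes, not all of them common to every complex, DPY30, RBBP5 and PSIP1 fell. Of 12 tested, none was called higher by edgeR, DESeq2 or limma-voom, against 11.8% of all tested genes in edgeR. Of the 12, 1 had an unadjusted p under 0.05 with a higher TAK1 shRNA mean, WDR5 (0.13 on the log2 scale). Without a fold threshold, 16.1% of all tested genes were higher at an adjusted p under 0.05, and the share at an unadjusted p is no smaller. DPY30 (-0.42), RBBP5 (-0.28) and PSIP1 (-0.26) were called lower, 3 of the 12 against 11.3% of all tested genes. DPY30 and RBBP5 belong to the core module that binds the catalytic subunits. The difference between the catalytic subunits and these other genes was not tested.

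DOT1L, the H3K79 methylase and the one such enzyme without a SET domain, rose. It had 159, 157 and 154 CPM in the scrambled samples and 236, 233 and 201 CPM in the TAK1 shRNA samples. The groups lay well apart, with TAK1 shRNA replicate 3 the lowest of its group. The log2 fold change was 0.51 (SE 0.0537, adjusted p = 4.92e-08). Its exons overlap those of PLEKHJ1 on the opposite strand, and strand use in the counting was not given in the sources used here. Over members, 25 of the 56 tested share exon sequence with another gene in GENCODE 44, 9 of the 14 called among them, so their counts could hold reads of both. These 9 are DOT1L, SUV39H2, SETD4, PRDM8 and the H3K4 methylases called higher (KMT2A, KMT2B, KMT2C, KMT2D and SETD1A). For KMT2A and KMT2D a gene on the same strand is among those that overlap. KMT2C in addition has near-identical copies elsewhere in the genome, and its value is uncertain for that reason.

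Calls among the writers of H3K9, H3K36 and H4K20 methylation are given beside 11.8% of all tested genes higher and 11.3% lower, and classes this small may hold no call at those rates. Without a fold threshold, 16.1% of all tested genes were higher and 17.2% lower at an adjusted p under 0.05. Shares at an unadjusted p are no smaller, so nothing is read from the counts of unadjusted p in these classes. Of 7 tested H3K9 methylases, SUV39H2 fell and none was called higher by edgeR, DESeq2 or limma-voom, and 2 (EHMT1 at 0.23 and SETDB1 at 0.22) had an unadjusted p under 0.05 with a higher TAK1 shRNA mean. SUV39H2, which trimethylates H3K9 in heterochromatin, had 25.4, 23.0 and 25.8 CPM in the scrambled and 21.2, 20.3 and 20.1 CPM in the TAK1 shRNA samples. The groups did not overlap but lay close, and the log2 fold change was -0.27 (adjusted p = 0.00847). SUV39H2 was no longer called without scrambled replicate 1 (-0.2496, adjusted p = 0.0388) or without scrambled replicate 3 (-0.24, adjusted p = 0.0547). Its paralog SUV39H1 had a log2 fold change of -0.021 and did not pass. EHMT2 (G9a) and EHMT1 (GLP), which act as a heterodimer, had the highest levels of the class per length of canonical transcript, at 28.8 and 28.7 CPM per kilobase in the scrambled samples. Per length of all exons joined, EHMT2 was still the highest at 15.7 CPM per kilobase, and EHMT1, at 6.59, was below PRDM2 (7.68). EHMT2 had 118, 113 and 112 CPM against 125, 116 and 116 CPM, with overlapping groups and a log2 fold change of 0.057.

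Of the H3K36 methylases, SETD2, which trimethylates H3K36 behind RNA polymerase, had 118, 117 and 123 CPM in the scrambled and 125, 135 and 139 CPM in the TAK1 shRNA samples. Its groups did not overlap, and the log2 fold change of 0.16 (adjusted p = 0.0168) was under the fold threshold. NSD1 had a log2 fold change of 0.20 (adjusted p = 0.0715). Neither was called by edgeR, DESeq2 or limma-voom, and both had an unadjusted p under 0.05. Of the 3 H4K20 methylases none was called by the 3 tools, and 1 had an unadjusted p under 0.05. This was KMT5A (SET8), the cell-cycle-regulated monomethylase, with 81.8, 73.5 and 78.3 CPM against 69.9, 69.6 and 70.5 CPM. Every TAK1 shRNA sample of KMT5A was below every scrambled one, at a log2 fold change of -0.15 (adjusted p = 0.0332), under the fold threshold.

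Of 9 tested methylases outside the symbol rule, such as ASH1L, NSD2, NSD3 and the SMYD genes, none was called by the 3 tools. In edgeR 11.8% of all tested genes were called higher and 11.3% lower. Without a fold threshold, 16.1% were higher and 17.2% lower at an adjusted p under 0.05, and shares at an unadjusted p are no smaller. Of the 9, 3 had an unadjusted p under 0.05, and nothing is read from that count. These were SMYD1 (0.19), the muscle-restricted member, SMYD5 (0.18) and NSD2 (-0.18).

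Of the 5 other SETD genes, 1 was called higher and none lower, beside 11.8% and 11.3% of all tested genes. The gene that rose was SETD4. It had 14.7, 16.9 and 16.9 CPM in the scrambled and 20.1, 20.2 and 19.8 CPM in the TAK1 shRNA samples, a log2 fold change of 0.31 (adjusted p = 0.00623). The groups did not overlap, and scrambled replicate 1 was the lowest. Without that replicate the log2 fold change was 0.24 (adjusted p = 0.0508) and SETD4 was not called. SETD5 had the highest level per length of canonical transcript in this class (29.2 CPM per kilobase in scrambled samples), with 202, 203 and 201 CPM against 233, 228 and 244 CPM. Its log2 fold change of 0.22 (adjusted p = 0.000543) was under the fold threshold although the groups lay apart. SETD3, the histidine methylase of actin, had -0.090 and did not pass.

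The erasers other than KDM6B moved less. KDM1A (LSD1), the flavin-dependent demethylase of H3K4, had the highest level per length of canonical transcript of any member, at 89.2 CPM per kilobase in scrambled and 97.6 in TAK1 shRNA samples. It had 278, 272 and 275 CPM against 300, 297 and 306 CPM. The KDM1A groups did not overlap, and the log2 fold change of 0.13 (adjusted p = 0.0204) was under the fold threshold. The order of levels depends on the length used. Per length of all exons joined, KMT5A was highest at 18.5 CPM per kilobase and KDM1A had 15.0. Neither flavin demethylase was called by edgeR, DESeq2 or limma-voom, and 1 of the 2 (KDM1A) had an unadjusted p under 0.05. With 11.8% of all tested genes called higher and 11.3% lower in edgeR, 2 genes may hold no call. Without a fold threshold, 16.1% of all tested genes were higher and 17.2% lower at an adjusted p under 0.05, and shares at an unadjusted p are no smaller.

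Of 15 tested JmjC demethylases, KDM6B and KDM7A rose and KDM4D fell. These shares, 13.3% higher and 6.67% lower, stand beside 11.8% and 11.3% of all tested genes. KDM7A, which removes methyl groups from H3K9 and H3K27, had 8.48, 10.2 and 7.72 CPM in the scrambled and 10.6, 11.6 and 12.5 CPM in the TAK1 shRNA samples. The groups came close, with 10.2 against 10.6 CPM, and the log2 fold change was 0.39 (SE 0.115, adjusted p = 0.010). KDM7A was no longer called without scrambled replicate 3 (0.30, adjusted p = 0.0826) or without TAK1 shRNA replicate 3 (0.32, adjusted p = 0.0607). In both fits it missed the p threshold and not the fold threshold. The divergent transcript KDM7A-DT had a log2 fold change of 0.22 (SE 0.216) and did not pass.

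KDM4D, an H3K9 demethylase with a high level in testis, was low in RD cells. It had 7.21, 6.60 and 6.78 CPM in the scrambled and 4.68, 4.76 and 4.91 CPM in the TAK1 shRNA samples. The groups were tight and apart, and the log2 fold change was -0.52 (SE 0.13, adjusted p = 0.00287). KDM4A (0.20) and KDM4B (0.23), its relatives that also act on H3K36, were higher with an adjusted p under 0.05 but under the fold threshold, as were KDM2A (0.16), KDM3B (0.20) and KDM5B (0.22). KDM3A, an H3K9 demethylase, was the JmjC gene with the highest level per length of canonical transcript (47.4 CPM per kilobase in scrambled samples). KDM3A had 223, 219 and 222 CPM against 213, 219 and 223 CPM, with overlapping groups and a log2 fold change of -0.019. KDM5A (0.058) and KDM5C (0.048), which demethylate H3K4, did not pass.

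Of 11 tested partners and relatives of the demethylases, PHF8 (0.38) and RCOR2 (0.35) rose and JMJD6 (-0.34) and RCOR1 (-0.27) fell, on the log2 scale. These shares, 18.2% each way, stand beside 11.8% higher and 11.3% lower of all tested genes. RCOR1 and RCOR2 are alternative corepressor partners of KDM1A, and they moved in opposite directions. RCOR1 went from a mean of 105 to 86.9 CPM and RCOR2 from 52.1 to 66.3 CPM.

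PRDM genes encode zinc-finger factors with a domain related to SET, and for most of them no enzyme activity is established. Of 8 tested outside the H3K9 class, PRDM16 rose and PRDM8 fell, 12.5% each way beside 11.8% and 11.3% of all tested genes. PRDM16, known as a determinant of brown fat that can turn muscle precursors toward that fate, had 5.42, 5.27 and 6.19 CPM in the scrambled and 9.10, 9.31 and 12.2 CPM in the TAK1 shRNA samples. The groups did not overlap, with TAK1 shRNA replicate 3 the highest. The log2 fold change was 0.86 (SE 0.132, adjusted p = 1.27e-05) and ran from 0.70 to 0.94 without each sample in turn. PRDM8, a repressor known from neural development, had 6.26, 7.53 and 7.75 CPM against 4.51, 4.98 and 4.15 CPM. Every TAK1 shRNA sample of PRDM8 was below every scrambled one, at a log2 fold change of -0.66 (SE 0.138, adjusted p = 0.000549). PRDM4 had the highest level of the class per length of canonical transcript (9.65 CPM per kilobase in scrambled samples), with 42.6, 40.3 and 38.1 CPM against 39.6, 42.1 and 41.6 CPM. Its groups overlapped, with a log2 fold change of 0.029.

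**Figure D4:**
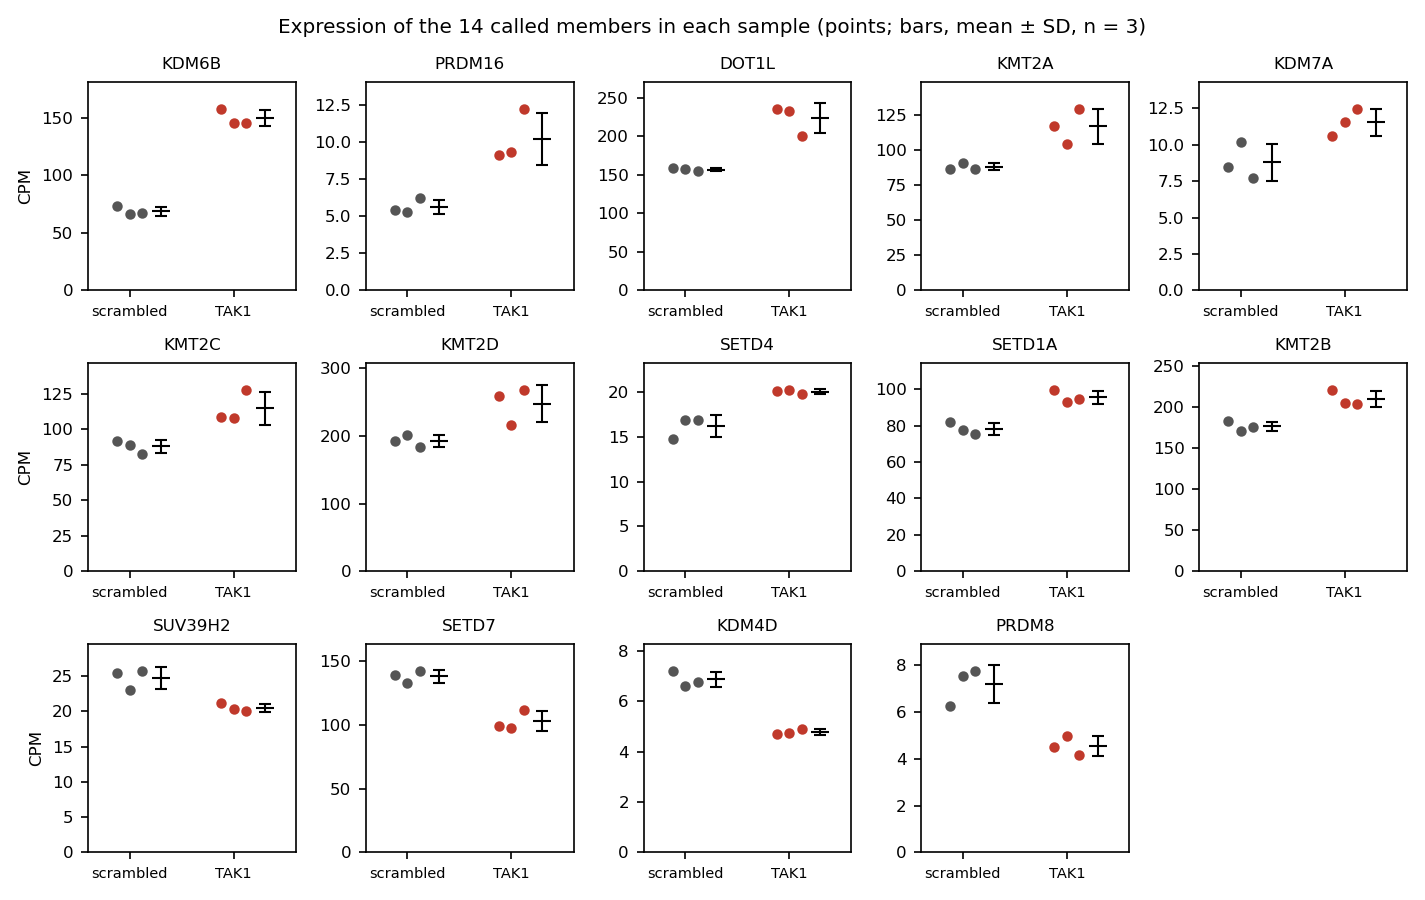
CPM (y axes, each from 0) of the 14 called members in each of the 3 scrambled and 3 TAK1 shRNA samples, with mean and SD beside the points. The groups separate in each panel, most widely for KDM6B and by little for KDM7A (10.2 against 10.6 CPM).

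The calls of KDM6B, PRDM16, DOT1L, KMT2A, KMT2C, SETD7, KDM4D and PRDM8 were made in each fit with another tool, normalization, filter on low counts or replicate term, in the fit with offsets for GC content and length, and in each fit without 1 sample. A fold threshold of 0.5 kept KDM6B, PRDM16 and DOT1L among the higher and PRDM8 and KDM4D among the lower members. Scaling by library size alone, without TMM, gave 17 members higher and 3 lower, against 14.9% and 8.81% of all tested genes. It moved the share of all calls that were upward from 51.0% to 62.9%. The 7 added were EHMT1, KDM3B, KDM4B, KDM5B, SETD1B, SETD5 and SETDB1, and SUV39H2 was lost. None of the 14 called members changed direction in any of these fits.

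**Figure D5:**
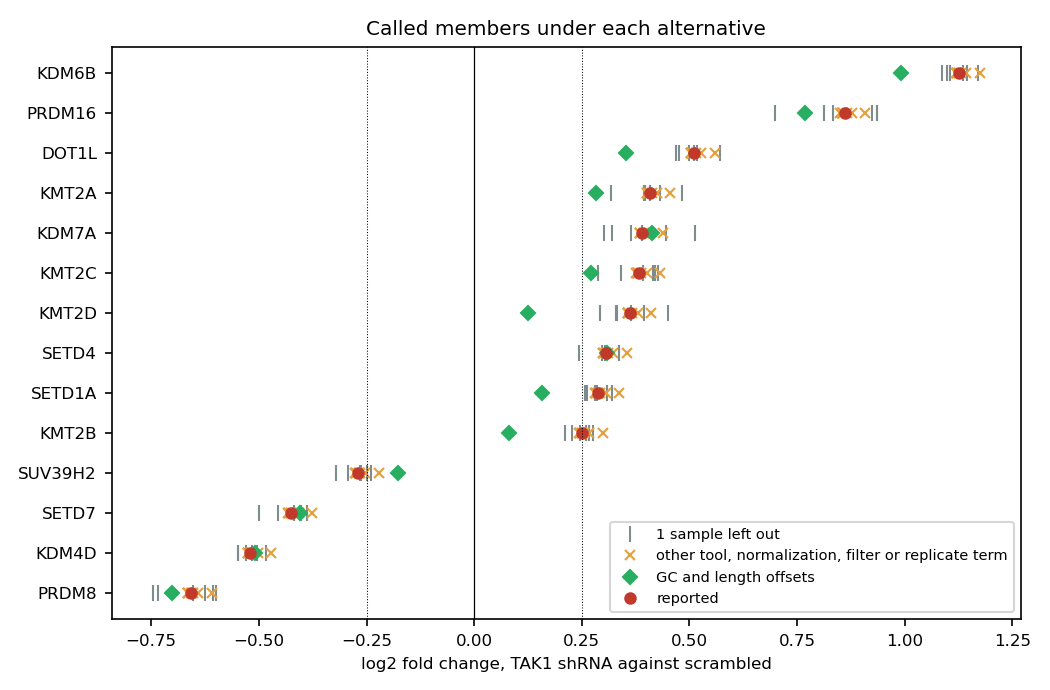
Log2 fold change (x axis) of the 14 called members in the reported fit (red), with other tools, normalizations, filters or a replicate term (crosses), with offsets for GC content and length (green) and without each sample in turn (ticks), with dotted lines at the fold threshold of 0.25. All points keep their side of 0, and KMT2D, SETD1A, KMT2B and SUV39H2 come inside the dotted lines with the GC and length offsets.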

How the data were processed

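The authors sequenced poly(A) mRNA of RD cells as paired-end reads, in 3 samples with scrambled shRNA and 3 with TAK1 shRNA. The deposited values were raw counts per gene, made after CASAVA base calling and STAR alignment to GRCh38 per the labels and the study's methods. The counting program, annotation release and strand use were not given in the sources used here. Groups came from the sample labels.

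Genes were kept with filterByExpr, normalized by TMM and tested with edgeR (4.0.16, R 4.3.3) by the quasi-likelihood test, with Benjamini-Hochberg adjustment over 15935 genes. A call needed an adjusted p under 0.05 and a log2 fold change of at least 0.25 in size, thresholds taken from the study. CPM used TMM-scaled library sizes. Levels per kilobase divided CPM by the length of the GENCODE 44 canonical transcript. Standard errors were derived from the fold change and its F statistic. The alternatives used DESeq2 (1.42.0), limma-voom (3.58.1), other normalizations, filters and thresholds, a replicate block, each sample left out and, chosen after seeing the data, offsets for GC content and length (87.0% of tested genes had a value). On simulated counts edgeR recovered 168 of 200 changed genes with 5 false calls among 15644 genes. These totals are not split by size of change, and recovery at the fold threshold of 0.25 was not tested. The tested genes held at least 99.9% of counts, the totals were 28839898 to 34469323, and the common coefficient of variation was 5.67%.

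The members and the lists of other genes were chosen with earlier results of these data known. Values were given for each sample for all called members, the PRC2 core and the member with the highest level per length in each role class. KDM6A was added after its values were seen. Of the tested members, 1 is counted but not reported by name here.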

Additional observations from a re-analysis of the deposited data

How the results depend on the processing

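Counts of members called higher or lower were 10 and 4, against 11.8% and 11.3% of all tested genes. They were 17 and 3 with library size alone, against 14.9% higher and 8.81% lower of all tested genes. Without a fold threshold 22 were higher and 6 lower, against 16.1% and 17.2% of all tested genes. With a fold threshold of 0.5, 3 were higher and 2 lower, against 4.61% and 4.27% of all tested genes. Without each sample in turn, 8 to 13 were higher and 3 to 5 lower, against 9.66% to 11.1% and 10.3% to 11.9% of all tested genes. In those fits the median log2 fold change of members was 0.087 to 0.14, and the log2 ratio of EZH2 to EZH1 differed by -0.21 to -0.10. KMT2B, on the fold threshold, was not called by DESeq2, limma-voom, median-of-ratios normalization, the fit without a filter or the fit with a replicate block. The cause of these shifts was not tested. Same-numbered samples of the groups had deviations correlated at 0.037, 0.036 and 0.016, so the numbers were not taken as pairs. With the replicate block 9 members were higher and 4 lower with a median of 0.14, against 12.2% and 11.6% of all tested genes. Scrambled replicate 3 correlated best with TAK1 shRNA replicate 2 (0.019). Low counts limit PRDM13 (SE 0.617), KDM7A-DT (SE 0.216) and SETDB2 (SE 0.212), for which a change at the fold threshold was not detectable at this depth. KDM4C (SE 0.137), KDM8 (SE 0.136) and SETD9 (SE 0.121) also had standard errors that were wide beside that threshold.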

Other observations

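The antisense rows left out of the members had low counts. KDM4A-AS1 had 74, 53 and 46 counts in the scrambled and 39, 92 and 69 counts in the TAK1 shRNA samples, and these overlapped. KMT2E-AS1 had 49, 39 and 44 counts against 47, 46 and 69 counts, which also overlapped.

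Within paralog pairs, the share of 1 member in the summed level per length of canonical transcript is a description of the balance between them. SUV39H2 made up 53.3% ± 0.693 (SD, n = 3) of SUV39H1 plus SUV39H2 in scrambled and 49.0% ± 0.244 (SD, n = 3) in TAK1 shRNA samples. EHMT2 made up 50.1% ± 0.937 of EHMT1 plus EHMT2 in scrambled and 47.0% ± 0.881 in TAK1 shRNA samples. KDM1B made up 6.01% ± 0.160 of KDM1A plus KDM1B in scrambled and 5.15% ± 0.183 in TAK1 shRNA samples. The size of a share depends on the length used. Per length of all exons joined, scrambled samples had 15.0 CPM per kilobase of KDM1A and 4.61 of KDM1B. By that length they had 6.59 of EHMT1 and 15.7 of EHMT2. In each of these pairs the shares of the 3 samples of one group did not overlap with the 3 of the other. EZH2 made up 91.4% ± 0.586 of EZH1 plus EZH2 in scrambled and 90.5% ± 0.595 in TAK1 shRNA samples, and these shares overlapped. For levels of single genes, groups did not overlap in 21.6% (higher) and 22.2% (lower) of all tested genes. No test was run on the shares.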
